A study of Homo sapiens
Mus musculus with 8 samples.

Results

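S100 proteins and galectins were followed through 4 lymphocyte cell lines and 3 single-cell RNA-seq kits by 10 genes of a combined reference of 60736. The mouse members were S100a4, S100a6, S100a10, S100a11, Lgals1 and Lgals3, and the human members were S100A4, S100A6, S100A11 and LGALS1. They were chosen by gene family, with their levels in these lines already known, so the contrasts between lines below are descriptions without a test. Both mouse lines, EL4 of the CD4 T lineage and IVA12 of the B lineage, and both human lines, the CD4 T line Jurkat and the small CD8 T line TALL-104, which is grown with IL-2, were used. None carried a treatment, and cells of the 4 lines were mixed in equal parts before being loaded. Messenger RNA was counted from its 3′ end in 1 library of the Chromium 3′ v2 kit and 4 of 3′ v3, and from its 5′ end in 2 libraries of 5′ v1. Each line is a single culture line, and nothing in the sources says that replicates came from separate cultures, so p-values here measure only the spread between libraries, which may be technical. One cell suspension served 3′ v2, another 5′ v1, a further one replicates 1 and 3 of 3′ v3 and the last replicates 2 and 4, so that kit and suspension cannot be told apart. Where 1 suspension of 3′ v3 is set against 5′ v1, p-values measure only the spread between libraries of the same suspension. A small p-value there does not tell a kit effect from a suspension effect.

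S100 proteins are small calcium-binding proteins with a pair of EF-hand motifs that mostly act as dimers. S100a4 binds non-muscle myosin heavy chain, S100a6 binds the calcyclin-binding protein Cacybp, S100a10 forms a tetramer with annexin A2 (Anxa2) and S100a11 binds annexin A1. Galectins bind β-galactosides on glycoproteins. Galectin-1 (Lgals1) is a dimer known for its effects on T cell survival, and galectin-3 (Lgals3) carries an extra N-terminal domain through which it forms oligomers. In lymphocytes these genes are known to be higher in activated and memory cells than in naive ones.

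A barcode with at least 1000 UMIs (unique molecular identifiers, each 1 captured molecule) was assigned to human or mouse if more than 80% of them were of that species. Mouse barcodes needed at least 10000 UMIs and were called IVA12 with at least 5 UMIs of Epcam, Cd24a, Ctss and Ckap4 together, and EL4 with at most 1. Human barcodes were called TALL-104 when NKG7, CST7 and CD8A held at least 0.1% of their UMIs, and Jurkat when they held under 0.02%. This gave 7999 EL4, 5021 IVA12, 8105 Jurkat and 2666 TALL-104 cells, with median totals per library of 26030 to 29602, 26209 to 35276, 10075 to 18522 and 1929 to 2762 UMIs. TALL-104 had 30 to 70 cells in each of the 3′ v2 and 5′ v1 libraries. Library totals ran from 24790710 to 251164949 UMIs. All 8 T cell markers were at 10 or more CPM (UMIs of the gene per 1000000 UMIs of its species in the cells of a line) in EL4. In IVA12, Cd79b, Ms4a1, Cd74 and Blnk were present, while Cd79a, H2-Aa and H2-Ab1 were under 1 CPM. CD8B was under 1 CPM in TALL-104, whose killing genes GZMB, PRF1 and GNLY were present. Summed myeloid markers reached at most 18.9 CPM and stromal markers 8.29 CPM in any line and library. In 3′ v3 replicates 2 and 4, which came from one suspension, 48.1% and 44.2% of Jurkat cells had under 10% mitochondrial UMIs, against at least 95.3% elsewhere, and 67.5% and 63.7% of TALL-104 cells, so these libraries stand apart and kit results are also given by suspension. The median share of mouse UMIs in TALL-104 cells was up to 15.3%, in 3′ v3 replicate 3. The 9 pairs of libraries with the same barcode format shared 0 to 15 cell barcodes.

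EL4 carried 3 of the 6 mouse members at high levels. Lgals1, galectin-1, stood at 2357 CPM in the 3′ v2 library (exact Poisson 95% interval 2329 to 2385, counting error only), at 1768 and 1423 CPM in 5′ v1 replicates 1 and 2, and at 1660, 1000, 1557 and 955 CPM in 3′ v3 replicates 1 to 4. The 5′ v1 mean was 1595 ± 244 CPM (SD, n = 2) and the 3′ v3 mean 1293 ± 367 CPM (SD, n = 4). At least 99.4% of EL4 cells had a Lgals1 UMI in every library.

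S100a6, the calcyclin gene, was at 664 CPM in 3′ v2, at 611 and 486 CPM in 5′ v1, and at 492, 216, 497 and 220 CPM in 3′ v3 replicates 1 to 4. Replicates 2 and 4 of 3′ v3 were the low samples, under every other library. S100a4, the myosin-binding member, was at 144 CPM in 3′ v2, at 144 and 111 CPM in 5′ v1, and at 272, 75.2, 223 and 61.9 CPM in 3′ v3. Replicates 1 and 3 of 3′ v3 were above the other kits here and replicates 2 and 4 below them. S100a10, S100a11 and Lgals3 were at or near 0 in EL4, with 41, 9 and 5 UMIs over the 7 libraries. Where such a gene had 0 UMIs, 3 counts would have been at most 0.261 CPM.

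**Figure D1:**
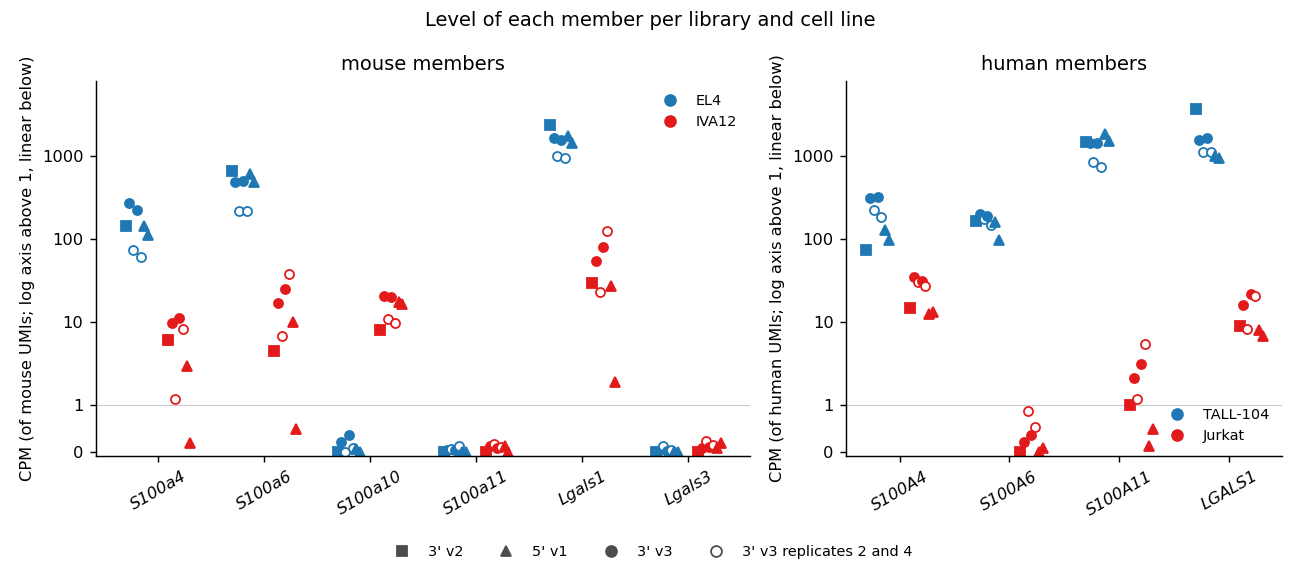
CPM of each member (vertical axis, logarithmic above 1 and linear below) in each library, with the mouse members in EL4 and IVA12 on the left and the human members in TALL-104 and Jurkat on the right. Symbols mark the kit, and open circles are replicates 2 and 4 of 3′ v3. Lgals1 stood at 955 to 2357 CPM in EL4 and 1.93 to 126 CPM in IVA12, and S100a10 ran the other way.

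IVA12 held S100a10, the annexin A2 partner, as its own member. It was at 8.0 CPM in 3′ v2 (exact Poisson 95% interval 4.95 to 12.2), at 17.4 and 16.4 CPM in 5′ v1, and at 20.6, 11, 20.1 and 9.81 CPM in 3′ v3 replicates 1 to 4. EL4 had 0 to 27 UMIs of S100a10 per library, at most 0.364 CPM, and the lines did not overlap. In the 2 libraries where EL4 had over 3 UMIs, IVA12 was 95.9-fold and 55.3-fold higher. In the 3 libraries where EL4 had 0 UMIs, set against 3 counts per library, it was at least 30.6-fold higher. In the other 2, EL4 had 2 and 3 UMIs and IVA12 411 and 282. A S100a10 UMI was found in 20.4% to 47.2% of IVA12 cells and in 0% to 0.974% of EL4 cells. The range of S100a11 in IVA12 was 0 to 5 UMIs per library and that of Lgals3 0 to 6, so neither was above 0.239 CPM in any library of either mouse line, where 3 counts were up to 1.14 CPM in IVA12.

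The other 3 members were low in IVA12 and varied widely between libraries. Lgals1 was at 29.7 CPM in 3′ v2, at 27.6 and 1.93 CPM in 5′ v1, and at 54.8, 22.8, 79.9 and 126 CPM in 3′ v3 replicates 1 to 4. S100a6 ranged from 0.482 to 37.8 CPM and S100a4 from 0.193 to 11.1 CPM. Each was lowest in 5′ v1 replicate 2. In 3′ v3 replicate 4, the library with the most Lgals1, 6 IVA12 barcodes had over 100000 UMIs, with 691565 in the largest. EL4 and IVA12 did not overlap for S100a4, S100a6 or Lgals1, and EL4 was the higher line in 7 of 7 libraries. The mean log2 ratio of EL4 to IVA12 was 5.25 ± 1.77 for S100a4, with IVA12 set to 3 counts in 1 library, 5.68 ± 2.37 for S100a6 and 5.63 ± 2.06 for Lgals1 (SD, n = 7). The fold of Lgals1 ran from 7.56 to 738, with a median of 43.8.

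These low IVA12 levels moved with a small set of barcodes. In 5 libraries, 201 of 4539 IVA12 barcodes had at least 0.02% of their mouse UMIs in the 8 EL4 markers, which were 2.30% to 5.32% of the IVA12 barcodes of a library. There were none in 3′ v2 or 5′ v1 replicate 2. Such barcodes met the IVA12 rule, yet their median share of EL4 markers was 0.079% to 0.135% in a library, against 0.208% to 0.279% in EL4 cells and 0% to 0.00389% in the other IVA12 barcodes.

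They held most of the low signal, 65.5% to 92.0% of the Lgals1 UMIs of IVA12, 59.0% to 92.7% of S100a6 and 60.1% to 88.6% of S100a4. Of S100a10 they held 2.07% to 12.1%. Their median Lgals1 was 11 to 33 UMIs per barcode, against 25 to 47 in EL4 cells of the same libraries. The median total of these barcodes was 34613 to 54446 UMIs, above the 26749 to 34876 UMIs of the other IVA12 barcodes. Without them, Lgals1 in IVA12 was at 29.7, 4.73, 1.93, 19.9, 6.78, 23.5 and 12 CPM, in the order 3′ v2, 5′ v1 replicates 1 and 2 and 3′ v3 replicates 1 to 4. The highest S100a6 was then 7.43 CPM, and S100a10 was at 8.0 to 21.2 CPM. The mean log2 ratio of EL4 to IVA12 became 6.83 ± 1.64 for S100a4, 7.34 ± 1.52 for S100a6 and 7.19 ± 1.34 for Lgals1 (SD, n = 7), and stayed at −6.32 ± 0.83 for S100a10, where it had been −6.29 ± 0.83 with EL4 set to 3 counts in 5 libraries. The setting was chosen after the data were seen.

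**Figure D2:**
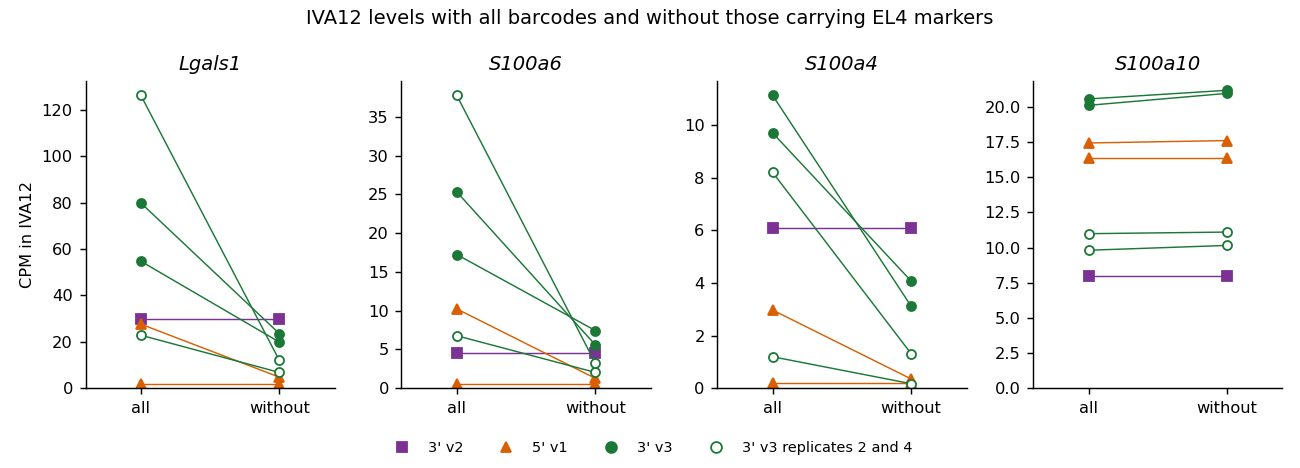
CPM in IVA12 of Lgals1, S100a6, S100a4 and S100a10 with all IVA12 barcodes and without those that carried EL4 markers, with 1 line per library. In 3′ v3 replicate 4, Lgals1 went from 126 to 12 CPM, while S100a10 was at 9.81 and 10.2 CPM.

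All 4 human members were higher in TALL-104 than in Jurkat, in 7 of 7 libraries and without overlap. S100A11, a binding partner of annexin A1, was at 1485 CPM in 3′ v2 (exact Poisson 95% interval 1275 to 1719), at 1832 and 1507 CPM in 5′ v1, and at 1421, 839, 1435 and 732 CPM in 3′ v3 replicates 1 to 4. LGALS1 was at 3641 CPM in 3′ v2 (3309 to 3998), at 1015 and 943 CPM in 5′ v1, and at 1583, 1132, 1672 and 1121 CPM in 3′ v3. The 3′ v2 library, with 41 TALL-104 cells and no replicate, was the high one. S100A4 was at 74.6 CPM in 3′ v2 (34.1 to 142), at 127 and 97.6 CPM in 5′ v1, and at 314, 222, 322 and 183 CPM in 3′ v3. S100A4 in every 3′ v3 library was above every library of the other kits. S100A6 stayed within 97.6 to 201 CPM over all 7 libraries.

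In Jurkat, S100A4 and LGALS1 were counted at low levels. Jurkat barcodes that also carried TALL-104 markers were not looked for. S100A4 was at 14.7 CPM in 3′ v2, at 12.4 and 13.1 CPM in 5′ v1, and at 35, 30.4, 31.2 and 27.3 CPM in 3′ v3 replicates 1 to 4, with 3′ v3 above the other kits throughout. LGALS1 was at 9.10 CPM in 3′ v2, at 8.13 and 6.85 CPM in 5′ v1, and at 16.1, 8.26, 21.9 and 20.9 CPM in 3′ v3. S100A11 reached 0.114 to 5.44 CPM, from 3 to 187 UMIs per library, and S100A6 at most 0.885 CPM, from 0 to 21 UMIs. The mean log2 ratio of TALL-104 to Jurkat was 2.96 ± 0.37 for S100A4 and 6.92 ± 0.91 for LGALS1 (SD, n = 7). The median fold was 7.43 for S100A4 and 125 for LGALS1. For S100A11, whose level in Jurkat was close to that in mouse cells in 3′ v3, the fold ran from 135 to 3042 in the 6 libraries where Jurkat had over 3 UMIs. For S100A6 it ran from 281 to 998 in the 3 libraries of that kind, and was at least 219 and 1408 in the 2 libraries where Jurkat had 0 UMIs, against 3 counts. The remaining libraries had 1 and 3 UMIs in Jurkat, beside 9 and 115 in TALL-104.

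Among genes with a mean of at least 5 CPM in a line of their species, 15.1% had EL4 above IVA12 without overlap over the 7 libraries and 16.6% IVA12 above EL4, beside 3 and 1 of the 4 mouse members that reached that level. For the human genes, TALL-104 was above Jurkat without overlap for 8.03%, beside 4 of 4 members. The members were chosen knowing these levels, so nothing is read from the shares.

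Free RNA in the droplets gives UMIs in cells that do not express a gene, and cells of the other species give an estimate of it. Droplets with cells of both species can add to that estimate, since no doublet caller was run. In human cells with over 95% human UMIs, a mouse Lgals1 UMI was found in 16.7% of cells in 3′ v2, 10.7% and 3.46% in 5′ v1, and 22.9%, 4.57%, 33.6% and 10.8% in 3′ v3 replicates 1 to 4. Among IVA12 cells the shares were 55.9%, 13.7%, 5.14%, 51.4%, 23.0%, 55.7% and 30.3% in the same order, at a median depth above that of the human cells. The cut at 95% itself limits the mouse UMIs of a human cell, and in 3′ v3 it kept 71.6%, 98.3%, 64.2% and 61.9% of the human cells. Over all human cells the shares were 20.4%, 4.68%, 31% and 10.2% there. Without the barcodes that carried EL4 markers, the IVA12 shares were 11.7% and 5.14% in 5′ v1 and 49.6%, 19.0%, 53.4% and 26.7% in 3′ v3. In 5′ v1, IVA12 then held 0.127 and 0.051 Lgals1 UMIs per cell, against 0.116 and 0.036 in human cells. In 3′ v2, where no IVA12 barcode carried EL4 markers, it held 0.839 against 0.185. In 3′ v3, the values were 0.214 to 0.808 UMIs per IVA12 cell and 0.051 to 0.428 per human cell. An EL4 cell held 26.1 to 64.0 Lgals1 UMIs on average. For S100a10 the share in human cells was 0% to 0.570%, and S100a11 and Lgals3 had 0 UMIs in these human cells.

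Human members in mouse cells were rarer. The share of mouse cells with an S100A4 UMI was 0% to 1.24%, far under the 15.9% to 31.2% of Jurkat cells, and the mouse cells were the deeper ones. LGALS1 was found in 0% to 3.16% of mouse cells and 6.87% to 19.7% of Jurkat cells. Jurkat S100A11 was close to its background in 3′ v3. A S100A11 UMI was found in 2.58%, 1.03%, 3.6% and 3.15% of Jurkat cells in replicates 1 to 4 and in 2.70%, 1.11%, 3.07% and 2.11% of mouse cells. The level per mouse cell was 82.1%, 105%, 58.3% and 47.7% of the level per Jurkat cell. In 5′ v1 the shares were 0.215% and 0.314% of Jurkat cells and 0.050% and 0% of mouse cells. S100A6 was in at most 0.687% of Jurkat cells and 0.452% of mouse cells. These mouse cells had over 95% mouse UMIs. Over all mouse cells, which take in barcodes that can hold a human cell as well, the values in 3′ v3 were higher. S100A11 was then in 3.22%, 1.63%, 4.26% and 3.51% of mouse cells in 3′ v3, at 0.047, 0.027, 0.066 and 0.140 UMIs per cell, against 0.041, 0.014, 0.061 and 0.057 per Jurkat cell. The LGALS1 level in 3′ v3 replicate 4 was 0.220 UMIs per cell in mouse cells and in Jurkat alike, with a UMI in 3.65% of mouse cells and 11.1% of Jurkat cells. With over 95% mouse UMIs it was 0.024 per mouse cell there. S100A6 was in up to 0.878% of mouse cells.

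**Figure D3:**
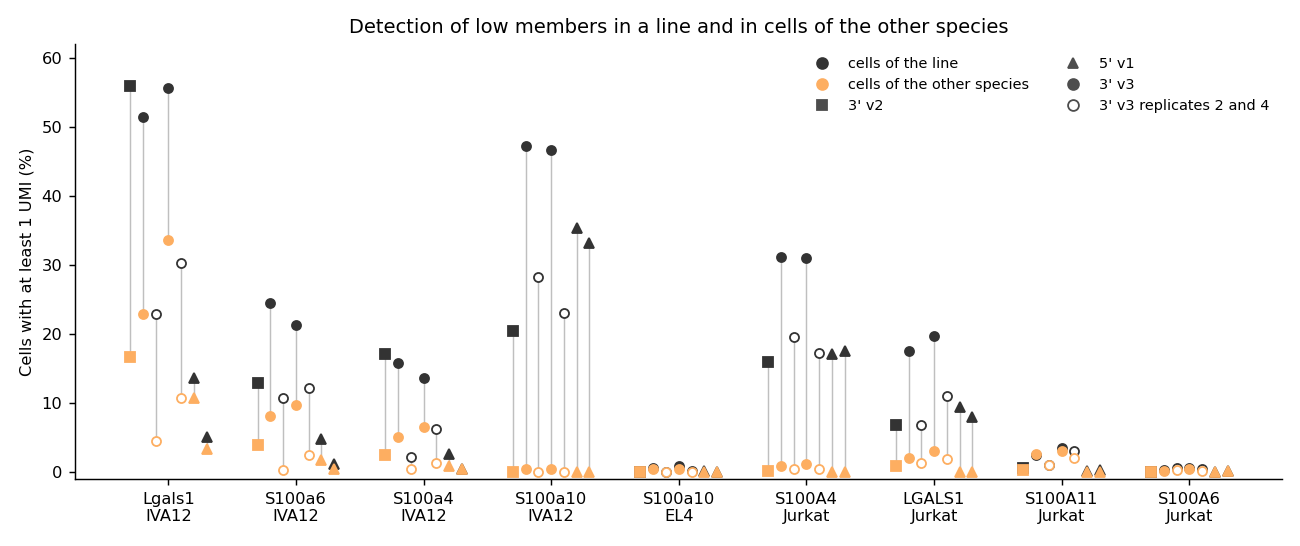
Percent of cells with at least 1 UMI of a low member (vertical axis) in a line and, for the same gene and library, in cells of the other species, an estimate of free RNA. S100a10 in IVA12 and S100A4 in Jurkat stood clear of that background in every library, whereas S100A11 in Jurkat reached 1.03% to 3.6% against 1.11% to 3.07% in 3′ v3.

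Other genes of both families were described beside the members. Of the 12 other mouse S100 entries of the reference, 10 were under 1 CPM in every EL4 library, and S100a13 alone reached 10 CPM, at 38.7 to 107 CPM in EL4 and 0.193 to 7.58 CPM in IVA12. Barcodes that carried EL4 markers held up to 83.5% of its IVA12 UMIs in a library, and without them it was at 0.193 to 1.47 CPM. Lgals9, galectin-9, was at 115 to 229 CPM in EL4 and 8.38 to 31 CPM in IVA12, or 8.05 to 28.9 CPM without those barcodes, and the galectin-like gene Lgalsl was at 13.3 to 36.3 CPM in IVA12 with at most 0.435 CPM in EL4. In the human lines, S100A10, the annexin A2 partner, was at 317 to 605 CPM in TALL-104 and 45.8 to 100.3 CPM in Jurkat. At 10 CPM or more in some TALL-104 library were 4 of 15 other human S100 genes (S100A10, S100B, S100P and S100Z) and 4 of 13 other galectins (LGALS3, LGALS8, LGALS9 and LGALS9C). A single UMI was worth up to 10.8 CPM there. S100B reached 10 CPM in 1 library alone, from 5 UMIs, and had 0 UMIs in 3 of 7. S100P rested on 2, 1 and 17 UMIs in the 3 libraries where it did. S100Z was at 9.44 to 40.5 CPM, from 1 to 53 UMIs, and LGALS8 at 8.29 to 97.6 CPM, from 1 to 79 UMIs. LGALS9 was higher in Jurkat without overlap, at 51.6 to 93.8 CPM against 0 to 13.9 CPM in TALL-104. LGALS3 was at 0 to 18.9 CPM in TALL-104 and at most 0.107 CPM in Jurkat. The small families of near-identical copies around LGALS9 (LGALS9B and LGALS9C) share sequence, and how the counting split them is uncertain.

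Binding partners of the S100 proteins did not follow one line. Of 16 listed mouse partners, 13 reached a mean of 5 CPM, and of these EL4 was above IVA12 without overlap for 5 (Anxa1, Anxa2, Anxa5, Ahnak and Capn1) and IVA12 above EL4 for 3 (Myh10, Cacybp and Fkbp4). Annexin A2 is the partner of S100a10, and Anxa2 was at 128 to 449 CPM in EL4, which lacked S100a10, and at 0.964 to 26.7 CPM in IVA12, which had it. Cacybp, which binds S100a6, was at 262 to 414 CPM in EL4 and 445 to 585 CPM in IVA12. Among 13 human partners, TALL-104 was above Jurkat for 4 (ANXA2, ANXA5, AHNAK and IQGAP1) and below for 2 (MYH10 and FKBP4). ANXA2 was at 163 to 287 CPM in TALL-104, which had more S100A10 as well, and at 13.7 to 66.9 CPM in Jurkat. Of the glycoprotein ligands and glycan-processing enzymes of the galectins, EL4 was above IVA12 for 5 of 13 and below for 4, and TALL-104 above Jurkat for 4 of 16 and below for 0. Over all genes of at least 5 CPM the shares were 15.1% and 16.6% for EL4 above and below IVA12, and 8.03% and 12.7% for TALL-104 above and below Jurkat. Genes of these lists are named here after their values were seen.

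Replicates 1 and 3 of 3′ v3 came from one suspension and replicates 2 and 4 from another. Most genes of each line separated them within a kit, so separation is not particular to the members. In EL4, S100a4 was 3.62-fold, S100a6 2.27-fold and Lgals1 1.65-fold higher in replicates 1 and 3 (ratio of means, n = 2 each), without overlap for 3 of 3 members. Of all EL4 genes of at least 5 CPM, 25.7% were higher in replicates 1 and 3 without overlap and 62.4% lower, and the median gene differed by −0.32 on the log2 scale. In TALL-104, S100A11 was 1.82-fold, S100A4 1.57-fold, LGALS1 1.44-fold and S100A6 1.22-fold higher in replicates 1 and 3, again without overlap for 4 of 4 members, where 18.3% of all genes were higher and 50.4% lower. In IVA12, S100a10 was 1.96-fold and S100a4 2.22-fold higher without overlap, beside 31.7% of all genes higher and 56.2% lower, and S100a6 and Lgals1 overlapped. In Jurkat, S100A4 was 1.15-fold higher without overlap, beside 32.5% of all genes higher and 54.5% lower, and LGALS1 overlapped. With 2 libraries of each suspension these are descriptions. Other galectins of EL4 went the other way, with Lgals9 0.876-fold and Lgals8 0.719-fold. The target was 3000 cells in replicates 1 and 2 and 6000 in replicates 3 and 4. Cells assigned to a line were 4237, 1455, 8397 and 3647 in replicates 1 to 4. Library totals were 117602776, 38116299, 251164949 and 92113015 UMIs. Their part in the split was not tested.

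The comparison of kits asked whether members were counted at different levels with 3′ v3 and 5′ v1. Sums per library were compared by edgeR's quasi-likelihood test over all genes of the species, with Benjamini-Hochberg adjustment. In EL4, 0 of 3 tested members passed an adjusted p of 0.05, by edgeR and by DESeq2, and 0 of 3 had an unadjusted p under 0.05, while 36.3% of all 11965 genes tested passed (19.2% higher and 17.1% lower in 3′ v3). The log2 fold of 3′ v3 over 5′ v1 was 0.35 ± 0.71 for S100a4, −0.61 ± 0.50 for S100a6 and −0.32 ± 0.38 for Lgals1 (SE, n = 4 and 2), with edgeR adjusted p of 0.729, 0.371 and 0.546. For S100a4 the sign turned with the suspension. With replicates 1 and 3 alone it was 1.08 (edgeR adjusted p = 0.000284), and with replicates 2 and 4 alone −1.22 (edgeR adjusted p = 3.18e-08). Without 3′ v3 replicate 1 it was −0.11. With replicates 1 and 3 alone 7828 genes passed in EL4, and with replicates 2 and 4 alone 8251, beside 11965 tested with all libraries. The folds of S100a6 and Lgals1 with replicates 2 and 4 alone were −1.63 and −1.01 (edgeR adjusted p = 1.25e-10 and 4.15e-08). With replicates 1 and 3 alone S100a6 was at −0.02 and Lgals1 at 0.14 (edgeR adjusted p = 0.893 and 0.413). With 1 library left out at a time, S100a6 ran from −0.88 to −0.39 and Lgals1 from −0.54 to −0.11, and neither passed.

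In IVA12, 0 of 4 tested members passed by edgeR or DESeq2, and 0 had an unadjusted p under 0.05, against 8.83% of 12203 genes (3.95% higher and 4.88% lower). The log2 fold was −0.07 ± 0.42 for S100a10 (edgeR adjusted p = 0.930), and with replicates 1 and 3 alone 0.41 and with replicates 2 and 4 alone −0.84, both past the threshold (edgeR adjusted p = 0.00572 and 0.000193). The folds of S100a4, S100a6 and Lgals1 were 2.17 ± 1.04, 1.95 ± 1.00 and 2.23 ± 1.03 (edgeR adjusted p = 0.226, 0.255 and 0.210). They depended on the 5′ v1 libraries, with 5.38, 5.54 and 5.24 without replicate 1 (edgeR adjusted p = 0.259, 0.168 and 0.157) and 1.42, 1.10 and 1.36 without replicate 2 (edgeR adjusted p = 0.647, 0.642 and 0.561). With replicates 1 and 3 alone 6822 genes passed in IVA12, and with replicates 2 and 4 alone 7287, beside 12203 tested with all libraries. The folds of S100a4, S100a6 and Lgals1 with replicates 1 and 3 alone were 2.53, 1.87 and 2.13, all past the threshold (edgeR adjusted p = 0.00176, 0.0205 and 0.0152). With replicates 2 and 4 alone they were 1.31, 1.75 and 2.04, where Lgals1 passed (edgeR adjusted p = 0.189, 0.0772 and 0.0476). The 8 EL4 markers counted in IVA12 moved with these, with a median log2 fold of 2.06 and 1 of 8 passing. Their part in the result was not tested further than by leaving out the barcodes that carried them, which gave 3.02 ± 1.2, 2.36 ± 0.72 and 2.25 ± 0.67 (edgeR adjusted p = 0.159, 0.0846 and 0.0809).

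In Jurkat, 2 of 4 members rose in 3′ v3, where 17.5% of 14131 genes passed (8.48% higher and 9.02% lower). S100A4 was 2.40-fold higher, with a log2 fold of 1.26 ± 0.25 (edgeR adjusted p = 0.0178). S100A11 was 11.5-fold higher, with a log2 fold of 3.52 ± 0.75 (edgeR adjusted p = 0.0217), from 305 UMIs in 3′ v3 and 9 in 5′ v1. Its level in mouse cells moved with the kit in the same way, as given above, and the kit test was not repeated with free RNA taken off. With the mean per mouse cell subtracted, S100A11 in Jurkat was at 0.088 and 0.495 CPM in 5′ v1 and at 0.379, −0.059, 1.31 and 2.85 CPM in 3′ v3 replicates 1 to 4, so the kits overlapped. Over all mouse cells the level per mouse cell was above that of Jurkat in 4 of 4 3′ v3 libraries. Of 8 TALL-104 markers counted in Jurkat, 5 were tested and 1 was higher in 3′ v3, with a median log2 fold of 1.17 against 0.04 for all genes, and their part in the result was not tested. The adjusted p of S100A4 and S100A11 missed the threshold without 5′ v1 replicate 1 (edgeR adjusted p = 0.179 and 0.211) or replicate 2 (0.168 and 0.0859), where S100A4 kept log2 folds of 1.27 and 1.25 and S100A11 had 2.62 and 4.59. A lone 5′ v1 library is then assumed to vary like the 3′ v3 libraries. LGALS1 had a log2 fold of 1.18 ± 0.42 and S100A6 of 3.57 ± 1.09 (edgeR adjusted p = 0.0913 and 0.0631). All 4 passed by DESeq2, whose count over all Jurkat genes is not given here, so nothing is read from that number. The S100A6 fold rests on 35 UMIs in 3′ v3 and 1 in 5′ v1. Its level per mouse cell in 3′ v3 was 32.3% to 76.1% of that per Jurkat cell. LGALS1 passed without 3′ v3 replicate 2, at 1.41 (edgeR adjusted p = 0.0154), and S100A6 had 2.21 without 5′ v1 replicate 1 and 6.26 without replicate 2 (edgeR adjusted p = 0.400 and 0.127). With replicates 1 and 3 of 3′ v3 alone, the log2 folds of S100A4, S100A11 and LGALS1 were 1.53, 3.62 and 1.47 (edgeR adjusted p = 1.88e-08, 1.63e-06 and 5.04e-07). With replicates 2 and 4 alone they were 0.98, 3.91 and 0.95 (edgeR adjusted p = 2.02e-07, 1.81e-07 and 0.000272). Of all genes, 8210 and 9434 passed with these suspensions alone, beside 14131 tested with all libraries.

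In TALL-104, 0 of 4 members passed by edgeR or DESeq2, with 1 at an unadjusted p under 0.05, against 4.32% of 8929 genes (2.36% higher and 1.96% lower). S100A4 had a log2 fold of 1.32 ± 0.43 (edgeR adjusted p = 0.0871) and passed with either suspension alone, at 1.67 and 0.66 (edgeR adjusted p = 1.09e-06 and 0.0486), and without 3′ v3 replicate 4, at 1.48 (edgeR adjusted p = 0.0273). S100A11 had a log2 fold of −0.43 ± 0.40 (edgeR adjusted p = 0.566), which was 0.00204 with replicates 1 and 3 alone and −1.21 with replicates 2 and 4 alone (edgeR adjusted p = 0.996 and 1.25e-07). LGALS1 and S100A6 had log2 folds of 0.64 ± 0.37 and 0.53 ± 0.37 (edgeR adjusted p = 0.339 and 0.421). They passed with replicates 1 and 3 alone, at 0.97 and 0.73 (edgeR adjusted p = 2.54e-05 and 0.0405), and were at 0.10 and 0.09 with replicates 2 and 4 alone (edgeR adjusted p = 0.569 and 0.823). Of all genes, 1303 and 2247 passed with these suspensions alone, beside 8929 tested with all libraries. With 1 library left out at a time, S100A11 ran from −0.67 without 3′ v3 replicate 1 to −0.15 without 5′ v1 replicate 1, and S100A6 from 0.29 without 5′ v1 replicate 2 to 1.14 without replicate 1, and neither passed. The 5′ v1 libraries held 70 and 30 TALL-104 cells and 36 to 527 UMIs a member.

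**Figure D4:**
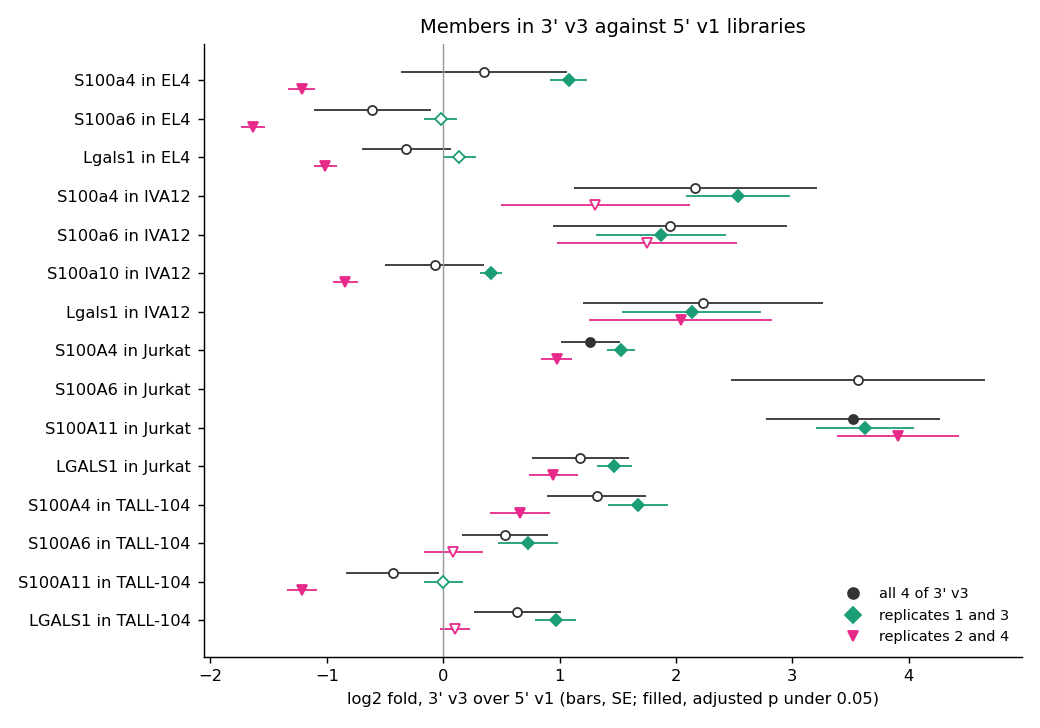
Log2 fold of 3′ v3 over 5′ v1 (horizontal axis, bars are SE) for each tested member and line, with all 4 libraries of 3′ v3 and with those of each suspension alone. Filled symbols passed an adjusted p of 0.05, and S100a4 in EL4 lay at 1.08 with one suspension and −1.22 with the other.

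The line difference itself was compared between kits, with the library as a block. Of 4 mouse members tested, 2 passed, where 29.8% of 13271 genes passed with 13.5% at a lower EL4 to IVA12 ratio in 3′ v3 and 16.4% at a higher one. The log2 ratio of EL4 to IVA12 was lower in 3′ v3 by −2.78 ± 0.81 for Lgals1 and −2.70 ± 0.80 for S100a6 (edgeR adjusted p = 0.0278 and 0.0303). S100a4 had −1.99 ± 0.74 and S100a10 2.25 ± 0.99 (edgeR adjusted p = 0.0699 and 0.115). Of the EL4 markers, 7 of 8 had a lower ratio as well. With replicates 1 and 3 of 3′ v3 alone Lgals1, S100a6, S100a4 and S100a10 had −2.25, −2.0, −1.57 and 2.47 (edgeR adjusted p = 0.0106, 0.00752, 0.00929 and 0.0447), and with replicates 2 and 4 alone −3.06, −3.35, −2.66 and 1.05 (edgeR adjusted p = 0.00112, 0.000171, 0.000858 and 0.587). The share of all genes that passed with 1 suspension is not given here, so these calls are not read as particular to the members. Without 5′ v1 replicate 2, the library with the lowest Lgals1 in IVA12, Lgals1 had −1.77 and S100a6 −1.93 (edgeR adjusted p = 0.164 and 0.156). Without 5′ v1 replicate 1 they had −5.27 and −5.97 (edgeR adjusted p = 0.0178 and 0.0294). S100a4 and S100a10 had −4.99 and 5.78 without 5′ v1 replicate 1 (edgeR adjusted p = 0.0955 and 0.201) and −1.47 and 1.63 without replicate 2 (edgeR adjusted p = 0.264 and 0.363). S100a4 passed without 3′ v3 replicate 1 or 4, at −2.23 and −1.49 (edgeR adjusted p = 0.0398 and 0.0337). S100a10 entered this test through IVA12, since in EL4 alone it was too low to be tested, with 39 UMIs in 3′ v3 and 2 in 5′ v1. Its values rest on these few EL4 UMIs. In 3′ v3 replicates 1 and 3 its level per human cell was 69.7% and 54.2% of that per EL4 cell. Without the IVA12 barcodes that carried EL4 markers, Lgals1 had −2.55 ± 0.28, S100a6 −2.98 ± 0.28 and S100a4 −2.75 ± 0.53 (edgeR adjusted p = 0.00011, 5.05e-05 and 0.0029). Lgals1 in the remaining IVA12 cells was at 0.127 and 0.051 UMIs per cell in 5′ v1 replicates 1 and 2, beside 0.116 and 0.036 in human cells of the same libraries, an estimate of free RNA. The level in human cells was 0.051 to 0.428 in 3′ v3. The part of free RNA in these differences was not tested.

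Of the 4 human members, 1 passed, where 1.32% of 12121 genes passed with 0.998% at a lower TALL-104 to Jurkat ratio in 3′ v3 and 0.322% at a higher one. This was S100A11, at −4.05 ± 0.68 (edgeR adjusted p = 0.00511), with the Jurkat level near that of free RNA in 3′ v3. Of the TALL-104 markers, 2 of 8 had a lower ratio as well, with a median of −1.67 against 0.13 for all genes, and their part in the result was not tested. S100A11 missed the threshold without 5′ v1 replicate 1 (−2.59, edgeR adjusted p = 0.467) or replicate 2 (−4.97, edgeR adjusted p = 0.0950). With either suspension alone S100A11 passed, at −3.68 and −5.15 (edgeR adjusted p = 5.48e-23 and 8.46e-31). These p-values measure only the spread between libraries of the same suspension, and Jurkat had 9 S100A11 UMIs in 5′ v1. S100A6 had −2.76 ± 1.00, LGALS1 −0.60 ± 0.31 and S100A4 −0.08 ± 0.33 (edgeR adjusted p = 0.209, 0.443 and 0.958). S100A6 had −0.63 without 5′ v1 replicate 1 and −4.69 without replicate 2 (edgeR adjusted p = 0.938 and 0.289), and LGALS1 was nearest to 0 without 3′ v3 replicate 4, at −0.15 (edgeR adjusted p = 0.874). LGALS1 passed with replicates 1 and 3 alone at −0.49 and with replicates 2 and 4 alone at −0.85 (edgeR adjusted p = 0.0223 and 6.57e-05), and S100A6 with replicates 2 and 4 alone at −3.62 (edgeR adjusted p = 0.0172). That S100A6 value rests on 3 and 5 Jurkat UMIs in these 3′ v3 replicates and 0 and 1 in 5′ v1. S100A6 entered the test through TALL-104, where it was known to be high, so nothing is read from its passing. Its level per mouse cell in these 3′ v3 replicates was 32.3% and 51.2% of that per Jurkat cell. Of all genes, 577 and 1214 passed with these suspensions alone, beside 12121 tested with all libraries.

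Genes of the same pathways were counted against the shares of all genes called, which were 19.2% higher and 17.1% lower in 3′ v3 for EL4, 3.95% and 4.88% for IVA12, 8.48% and 9.02% for Jurkat, and 2.36% and 1.96% for TALL-104. In EL4, 7 of 14 tested S100 partners were higher in 3′ v3, among them Anxa2 (log2 fold 1.27) and Fkbp4 (0.83), and Ahnak was lower (−1.35). In Jurkat, 4 of 14 partners were higher, among them ANXA2 (1.60) and IQGAP1 (0.90), and none was lower by edgeR. In IVA12, 0 of 14 partners passed, and in TALL-104, 0 of 13. The glycoprotein and glycan list had 1 of 13 higher and 3 lower in EL4, 3 of 16 higher in Jurkat and 2 of 16 higher in TALL-104, including the receptor phosphatase PTPRC at 1.00 in Jurkat and 1.26 in TALL-104. Medians of all genes tested were 0.06, 0.03, 0.04 and 0.11 on the log2 scale in EL4, IVA12, Jurkat and TALL-104.

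Cells of a line differed in their content of the members. Each cell was thinned to 10000 UMIs for the mouse lines, 5000 for Jurkat or 1000 for TALL-104, leaving out 0 to 2 shallower EL4, 0 to 4 IVA12, 16 to 135 Jurkat and 0 to 8 TALL-104 cells per library. The excess coefficient of variation (CV), which removes Poisson sampling, was then computed where the mean was at least 1 UMI. For Lgals1 in EL4 the mean was 9.60 to 23.6 UMIs per cell, and the excess CV 0.38 ± 0.08 (SD, n = 7 libraries). For S100a6 the mean was 2.18 to 6.64 UMIs and the excess CV 0.73 ± 0.06 (SD, n = 7). For S100a4 the excess CV was 0.82 ± 0.10 (SD, n = 5), and 21.4% to 62.4% of thinned EL4 cells had no S100a4 UMI, against 7.36% to 38.2% before thinning.

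Over all genes with at least 1 UMI per EL4 cell, 1148 to 1514 in a library, the median excess CV was 0.220 to 0.372. S100a6 lay at the 90.9th to 99.1th percentile of these genes, S100a4 at the 96.4th to 99th and Lgals1 at the 74.4th to 83.6th. Beside depth and mitochondrial share, the mean Pearson r of S100a4 was 0.00 with total UMIs and −0.01 with mitochondrial share, and that of S100a6 −0.06 and 0.02. For Lgals1 it was 0.09 and −0.09, reaching 0.18 and −0.16 in a library. In TALL-104 it was 0.07 and −0.05 for LGALS1 and −0.10 and −0.09 for S100A11, which reached −0.35 and −0.29.

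In TALL-104, LGALS1 had a mean of 0.868 to 1.71 UMIs of 1000 and an excess CV of 0.66 ± 0.08 (SD, n = 4), at the 95.1th to 98.1th percentile of the genes at that level. S100A11 had 0.34 ± 0.20 (SD, n = 3), at the 32nd to 90th percentile. The median of all genes was 0.230 to 0.282. In IVA12 and Jurkat no member reached 1 thinned UMI per cell.

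**Figure D5:**
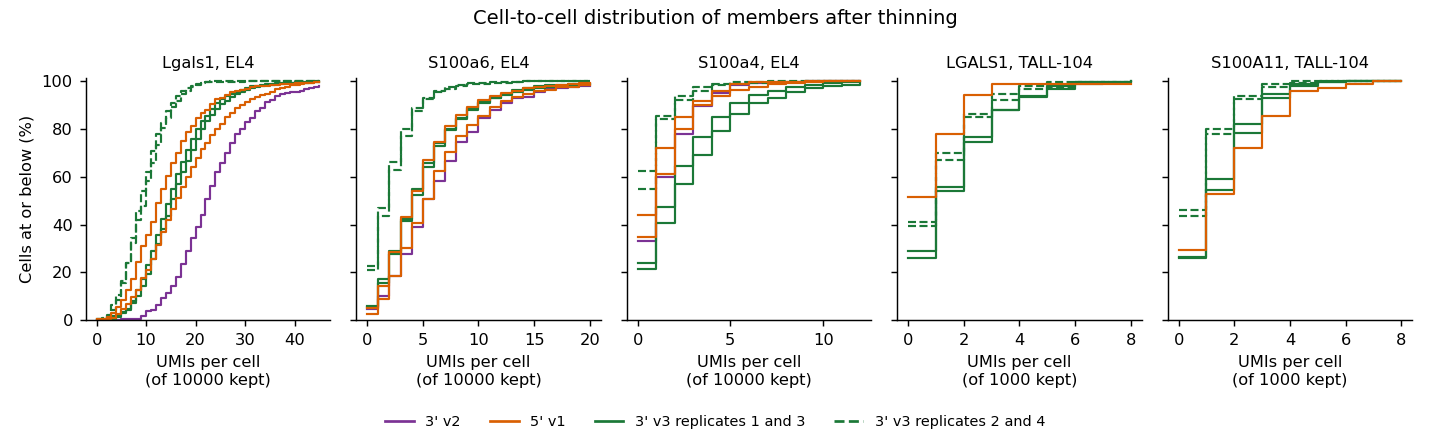
Cumulative percent of cells (vertical axis) at or below a number of UMIs of the gene per thinned cell (horizontal axis), with 1 line per library. S100a4 had no UMI in 21.4% to 62.4% of EL4 cells, with 55% and 62.4% in 3′ v3 replicates 2 and 4 (dashed) and 21.4% and 24% in replicates 1 and 3.

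Likeness between genes was measured as the Pearson r across thinned cells of a library, on the scale log(1 + UMIs), averaged over libraries. It is a description over cells that share a library, depth and free RNA. The EL4 gene most like S100a4 among 1709 was S100a6, with a mean r of 0.378 (0.299 to 0.481 over 7 libraries), and the same held from S100a6. The next was Tmsb4x, thymosin β4, which binds actin monomers, at 0.328 with S100a4 and 0.304 with S100a6. The third was Tmsb10 for S100a4 (0.215) and Sh3bgrl3 for S100a6 (0.240). The 99th percentile over all genes was 0.135 for S100a4 and 0.151 for S100a6. Lgals1 was most like Fth1 (0.210), Txn1 (0.205) and Prdx1 (0.197), the ferritin heavy chain, thioredoxin and a peroxiredoxin, and had 0.162 with S100a4 (0.019 to 0.242 over libraries) and 0.136 with S100a6 (0.044 to 0.193). Both pairs with Lgals1 were lowest in 3′ v3 replicates 2 and 4. In TALL-104, LGALS1 was most like VIM (0.220), the intermediate filament vimentin, among 160 genes in 5 libraries. Next were CD52 (0.127) and ACTB (0.115). S100A11 was most like LGALS1, at a mean r of 0.114 (0.067 to 0.149), followed by IL32 (0.103) and PPDPF (0.0986). The 99th percentile over these genes was 0.120 for LGALS1 and 0.1 for S100A11.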

How the data were processed

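The deposited matrices hold raw UMI counts of every gene in every barcode. The authors downsampled the reads of each library and counted them with Cell Ranger (3.0.2) against the 10x human and mouse reference (1.2.0, hg19 and mm10). All barcodes were kept and libraries were not pooled. Downsampling levels reads per cell for RNA-rich cells only, so depth still differs between lines and libraries.

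Of 8 libraries listed, 7 were used, and the first replicate of 3′ v2 was left unanalysed here. Samples were grouped by the kit in their titles. Replicate numbers follow accession order and pair nothing. No doublet caller was run. Barcodes between the thresholds of 2 lines were left out. Members and gene lists were chosen with earlier results of these data known. The text names all 10 members, the lists by counts with values for up to 4 genes each, and for each member with at least 1 thinned UMI per cell the 3 genes most like it.

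CPM is per 1000000 UMIs of the species in the cells of a line and library. Folds use a floor of 3 counts per library. UMIs of each line were summed per library and tested in edgeR 4.0.16 (R 4.3.3), with filterByExpr, TMM scaling, glmQLFit and an adjusted p threshold of 0.05 over all genes of the species. The SE is the log2 fold over the square root of F. DESeq2 1.42.0 was an alternative. Other steps used Python 3.11.15, numpy 2.4.6 and scipy 1.17.1. Steps were tested on simulated data. The kit test recovered 84.9%, 80.8%, 80.0% and 21.9% of 2-fold changes in EL4, IVA12, Jurkat and TALL-104. The line by kit test recovered 44.4% for mouse and 7.45% for human. For 4-fold changes the shares were 77.1% in TALL-104 and 37.9% for the human line by kit test. The simulated counts had the same spread between libraries for every gene and no split by suspension. The 3′ v3 libraries did split by suspension, so these shares cannot give the recovery for the real counts. Members that did not pass are therefore not shown to be unchanged in any line. Alternatives were other cutoffs, filters, scalings, single suspensions and leaving out each library. Those without TMM, with free RNA subtracted, with free RNA measured over all cells of the other species and without IVA12 barcodes carrying EL4 markers were added after the data were seen. Intervals and floors cover counting error only. Gene positions are not given, since annotation of hg19 and mm10 was not used here.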

Additional observations from a re-analysis of the deposited data

Results flagged for a closer look

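In EL4, 3 of 4 libraries of 3′ v3 had Lgals3 close together, and replicate 2 stood apart at 0.126 CPM, which is 2 UMIs against 1 in each of the others. All 4 lie under the 3-count floor, so the gap is 1 UMI scaled by library totals. It was found by Dixon's criterion at the 95% level, which chance meets in about 1 of 20 groups, and 20 groups were examined. The effect of the kit differed between EL4 and IVA12 for S100a6 (−2.70, log2) and Lgals1 (−2.78), and between TALL-104 and Jurkat for S100A11 (−4.05), by the test of the difference itself in edgeR (adjusted p = 0.0303, 0.0278 and 0.00511). In IVA12 the EL4 markers moved with the first 2, and in Jurkat the free-RNA level of S100A11 moved with the third. Their part in these differences was not tested beyond the settings given with each.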

How the results depend on the processing

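No paired analysis was possible because the labels give no replicate numbers and the kits were run on different suspensions, so that samples of the kits share nothing; the lines were compared within each library. The line ratios kept their direction under all 105 alternatives, which leave out S100a11 and Lgals3, too low in both mouse lines for a ratio. The 12 of the cell-to-cell spread moved by less than 1 SD. For S100a4 in EL4 at 5000 UMIs no value is given, since 2 libraries alone reached a mean of 1 UMI. With replicates 1 and 3 of 3′ v3 alone, calls and members called were 7828 and 1 in EL4, 6822 and 4 in IVA12, 8210 in Jurkat, 1303 and 3 in TALL-104, and 577 and 2 for the human line by kit difference. With replicates 2 and 4 alone they were 8251 and 3 in EL4, 7287 and 2 in IVA12, 9434 in Jurkat, 2247 and 2 in TALL-104, and 1214 and 3 for the human difference. With all libraries the genes tested were 11965 in EL4, 12203 in IVA12, 14131 in Jurkat, 8929 in TALL-104 and 12121 for the human difference. In EL4, IVA12 and Jurkat the calls with 1 suspension were most of these numbers. For the mouse difference 3960 of 13271 genes passed with all libraries, and its calls with 1 suspension are not given. DESeq2 called 2131 genes in IVA12 and 4 members in Jurkat, where its count over all genes is not given. Without a filter on low counts, TALL-104 had 706 calls with 1 member, and the human difference 290. With over 95% of UMIs from a species, TALL-104 had 233, and with its stricter score 155 with 1 member, and the human difference 51. The 95% setting left 3 of 1050 TALL-104 cells in 3′ v3 replicate 3. The stricter score left 23 and 11 TALL-104 cells in 5′ v1 replicates 1 and 2 and 28 to 129 in a 3′ v3 library, so both rest on few cells.

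Signs turned for S100a4 (−1.22) in EL4 with replicates 2 and 4, and for Lgals1 (0.14) in EL4, S100a10 (0.41) in IVA12 and S100A11 (0.00204) in TALL-104 with replicates 1 and 3. The human line by kit difference of S100A4, near 0, turned to 0.00763 without a filter, 0.23 with under 10% mitochondrial UMIs, 1.60 with the stricter score, 0.10 with other UMI minimums and 0.17 with replicates 1 and 3. Leaving out each library gave 1125 to 4226 calls in EL4, 30 to 750 in IVA12, 113 to 2156 in Jurkat, 9 to 628 in TALL-104, 1300 to 4211 for the mouse difference and 2 to 355 for the human one, where the lowest counts came without a 5′ v1 library, with 0 to 0, 0 to 0, 0 to 3, 0 to 1, 0 to 3 and 0 to 1 members. Counts moved by over 1.5 times without either 5′ v1 library, and without 3′ v3 replicate 3 (670) or 4 (614) in IVA12, replicate 1 in TALL-104 (628), and replicate 1 (355), 3 (284) or 4 (270) for the human difference. Log2 values then ran from −0.11 to 0.65 for S100a4 in EL4, −0.26 to 0.13 for S100a10 in IVA12 and −0.22 to 0.50 for the human difference of S100A4. The causes of these moves were not tested. Depth limits S100A6 in Jurkat, S100A11 in Jurkat, where free RNA is a further limit, and all TALL-104 values of 3′ v2 and 5′ v1.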
